A study of Mus musculus with 39 samples.

Results

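The miR-130/miR-301 family is a set of microRNAs (miRNAs) that share their seed, the stretch near the 5′ end that pairs with target mRNAs. Its members were chosen by name: mmu-miR-130a, mmu-miR-130b, mmu-miR-130b*, mmu-miR-301a and mmu-miR-301b, which are 5 of the 650 mouse miRNAs on the array. The name mmu-miR-130b* stands for the other arm of the miR-130b hairpin, which carries a different seed.

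The study followed mouse embryonic stem cells (ESCs) as they were directed towards definitive endoderm. The cells were of the TCL-1 line, from strain 129/SvJae, kept with LIF on feeder cells (mouse embryonic fibroblasts stopped with mitomycin) and moved to gelatin to remove the feeders. Total RNA was hybridised to single-colour Agilent mouse miRNA arrays with Cy3 label, 3 arrays in each of 13 groups. Undifferentiated ESCs made up 1 group, and the other 12 were cells on collagen-coated plates in RPMI 1640 with B27 and sodium butyrate for 1, 3 or 5 days. At each of these days there was a control group without added factors, a group with Activin A at 100 ng/ml, a group with Wnt3a at 50 ng/ml and a group with Activin A plus Wnt3a. All groups come from 1 cell line, and whether the replicates were separate cultures is not given, so the p-values measure only the spread between these samples.

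A miRNA guides a silencing complex to mRNAs whose 3′ untranslated regions pair with its seed, and miRNAs with the same seed can therefore share targets. Each hairpin gives a duplex with an arm from either side, and usually the more abundant of them is called the guide while the other was named with a star. Activin A signals through Nodal-type receptors and SMAD proteins, Wnt3a through beta-catenin, and both are used to direct ESCs to endoderm, the layer that gives gut, liver and pancreas.

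The mature sequences of the members, and of mmu-miR-721, which has the same seed and is also on the array, are shown because the family is defined by them. They are from RefSeq (build GRCm38.p6), 5′ to 3′, and the capitals mark the seed, bases 2 to 8. A sequence was found for 4 of the 5 members.
mmu-miR-130a: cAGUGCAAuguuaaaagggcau
mmu-miR-130b: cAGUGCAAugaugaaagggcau
mmu-miR-301a: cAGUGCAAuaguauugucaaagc
mmu-miR-721: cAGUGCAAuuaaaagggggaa
mmu-miR-130b*: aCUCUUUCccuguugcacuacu
The sequences of miR-130a and miR-130b are equal at 20 of 22 bases, and the differences are U11A and A13G, with the base of miR-130a first and positions counted from 1 at its 5′ end. From the 5′ end, miR-301a is equal to both over an unbroken run of 9 bases, and over the first 22 positions it is equal to miR-130a at 12 and to miR-130b at 11.

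In GRCm38.p6 the miR-130b arms lie at chr16:17124071-17124092 and, for the star arm, chr16:17124109-17124130, both on the minus strand. The miR-301b hairpin lies 257 bases from that of miR-130b on the same strand, and both are within the span of the gene 2610318N02Rik. The mature miR-130a lies at chr2:84741116-84741137 on the minus strand, outside any annotated gene span. The mature miR-301a lies at chr11:87113054-87113076 on the plus strand, within the span of Ska2. The annotation used does not tell exons from introns. Levels below are log2 of the array's total signal for a miRNA after the 39 arrays were given the same distribution of values (quantile normalization). In that procedure equal ranks receive equal values, so replicates can be identical.

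Of the 650 miRNAs, between 183 and 375 were detected on an array, with a median of 296. Detection grew with time in culture: ESC arrays had 183 to 235 detected miRNAs, and control arrays at day 5 had 323 to 333. The members miR-130a, miR-130b and miR-301a were detected on 39 of 39 arrays, miR-130b* on 33 and miR-301b on 31. All 5 were detected on at least 2 of 3 arrays of some group in each comparison's data and so entered every test. No spot was saturated. For an undetected miRNA the level is a fixed low value, so no fold is given against a group in which a member was undetected on every array.

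The arrays were on 5 slides, scanned in 2 sessions per the file headers, and slides and groups overlap in part. The second session held all day 5 arrays and the day 3 arrays with Activin A plus Wnt3a, so from day 3 to day 5 the other groups change session as well. All ESC and day 1 control arrays were on 1 slide, while the day 3 group with Activin A plus Wnt3a was on a slide with no other day 3 array. For that group, slide, session and treatment cannot be told apart. A second limit concerns the labels. In the deposited table of normalized values, 18 of 39 columns follow the exact rank order of another array than the one they are named for (rho = 1 over 143 miRNAs): the 9 Activin A and the 9 Activin A plus Wnt3a columns are exchanged within each day. Which labelling is right cannot be told from the files, and the groups here are those of the scanner files. The study describes miR-301b as lowered by the combined factors and not by either alone. Its criteria use fold thresholds that the calls here do not. Under the scanner labels miR-301b was lower with both factors than with Activin A alone at day 3 (-0.61, fold 0.655, adjusted p 0.0138), where Activin A against control was at 0.45, and at day 5 the difference did not pass (-0.48, fold 0.717, adjusted p 0.444). In the deposited table with its columns as named, the day 3 difference was 0.85 (adjusted p 0.0197), and at day 5 miR-301b was lower than control with Activin A alone (-1.26, adjusted p 0.00139) and with both factors (-0.70, adjusted p 0.044). Under the scanner labels, miR-301b at day 5 was lower than control with both factors (-1.12, adjusted p 0.0035). With Activin A alone the limma test there did not pass (-0.64, adjusted p 0.0587). A miR-301b level lower with both factors than with Activin A is thus found under the scanner labels only, which does not show which labels are right. With the column names, the values given for Activin A and for Activin A plus Wnt3a trade places, and every difference between these groups changes sign.

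Marker miRNAs were used to check the cell state in each group. The 8 pluripotency miRNAs, of which miR-294 was the brightest, had a summed signal of 36000 in ESCs, 8240 in day 5 control cells, 28000 with Activin A at day 5 and 32900 with Activin A plus Wnt3a at day 5. Bright members weigh most in these sums: miR-294 was at 13.32 (SD 0) both in ESCs and with both factors at day 5, while between these groups 5 of the 8 were called lower and 2 higher, with a median of -0.70. The 4 neural miRNAs, of which 3 were undetected in ESCs, summed to 875 in day 5 control cells, 1190 with Wnt3a (723 to 1830 over its arrays, with 0 of 4 called against control and a median difference of -0.38), 82.5 with Activin A and 39.6 when the factors were combined. The 6 epithelial and endodermal miRNAs summed to 121 in day 5 control cells, 1320 with Activin A and 1330 with both factors, with miR-375 undetected in control cells. The 6 fibroblast miRNAs, led by miR-199a-3p, summed to 482 in ESCs, 1000 in control cells at day 1, 32.4 in control cells at day 3 and 77.4 with both factors at day 5. In control cells at day 3, 5 of these 6 were undetected. In control cells, 8 of 8 pluripotency miRNAs were lower at day 3 than at day 1, and 4 of 4 neural miRNAs were higher at day 5 than at day 3. Against control at day 5, 7 of 8 pluripotency miRNAs and 6 of 6 epithelial and endodermal miRNAs were higher with Activin A, alone or with Wnt3a, and 4 of 4 neural miRNAs were lower, counts that were the same under both 75th percentile scalings and normexp. Of the 5 fibroblast miRNAs tested there, 1 was higher with Activin A and 3 with both factors. Against control at day 3, 8 of 8 pluripotency and 6 of 6 epithelial and endodermal miRNAs were higher with Activin A, alone or with Wnt3a. Of the 4 neural miRNAs, 2 were higher and 2 lower with Activin A, while 3 were lower with both factors. With Wnt3a alone at day 3, 7 of 8 pluripotency and 4 of 6 epithelial and endodermal miRNAs were higher, and 1 of 4 neural miRNAs was lower. The control cells thus differed from the treated cells in marker miRNAs of several kinds. Their part in the members' results was not tested, and in bulk RNA fewer cells of a type and less RNA per cell cannot be told apart.

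Across the 13 groups all 5 members passed the test for any difference (limma F-test, adjusted p from 5.65e-11 for miR-301a to 8.17e-06 for miR-130b*), and so did 88.5% of the 373 miRNAs tested, so the count is near the background. In the order of group means, miR-130b was highest in control cells at day 5 (9.94 ± 0.18, SD, n = 3) and with Wnt3a at day 5 (9.73 ± 0.66), which overlap. Next came control and Wnt3a at day 3, at 9.03 ± 0.04 and 8.96 ± 0.04. Control cells at day 1, ESCs and the Activin A groups of all 3 days lay between 8.61 and 8.52, and Wnt3a at day 1 with the groups that had both factors, at all 3 days, came last, from 8.36 to 8.29. The order for miR-130b thus put the groups without Activin A first at days 5 and 3.

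The star arm of the same hairpin was ordered otherwise. It was undetected on all ESC arrays. Its mean was highest in day 5 control cells (5.14) and with both factors at day 1 (5.10 ± 0.24). Among the groups with detection on 3 of 3 arrays it was lowest with both factors at day 3 (3.36 ± 0.26), with Activin A at day 5 (3.16 ± 0.08) and with both factors at day 5 (3.12 ± 0.08); these 3 groups overlap one another. It was detected on 2 of 3 Activin A arrays and 1 of 3 control arrays at day 1.

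The level of miR-130a was highest with Wnt3a at day 5 (11.78 ± 0.38) and in day 5 control cells (11.43), followed without overlap by both factors at day 5 (10.97 ± 0.16) and Activin A at day 5 (10.90 ± 0.14). The remaining 9 groups spanned only 10.40 to 10.82, each overlapping its neighbours. For miR-301a the 4 day 5 groups came first, from 8.96 ± 1.00 with Wnt3a to 8.31 ± 0.09 with both factors. The day 3 groups followed, from 8.05 ± 0.20 with Activin A to 7.46 ± 0.42 in control cells, and then, after a gap of 0.81, ESCs and all day 1 groups between 6.65 and 6.29. In the order for miR-301a, day in culture thus came before treatment. For miR-301b the order began with Wnt3a at day 5 (6.65 ± 0.57) and day 5 control cells (6.30 ± 0.08), which overlap, then Activin A at day 5 (5.66 ± 0.13), Activin A at day 3 (5.35 ± 0.06) and both factors at day 5 (5.18 ± 0.06). In ESCs and in all day 1 groups but Activin A, miR-301b was detected on only 1 of 3 arrays.

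**Figure D1:**
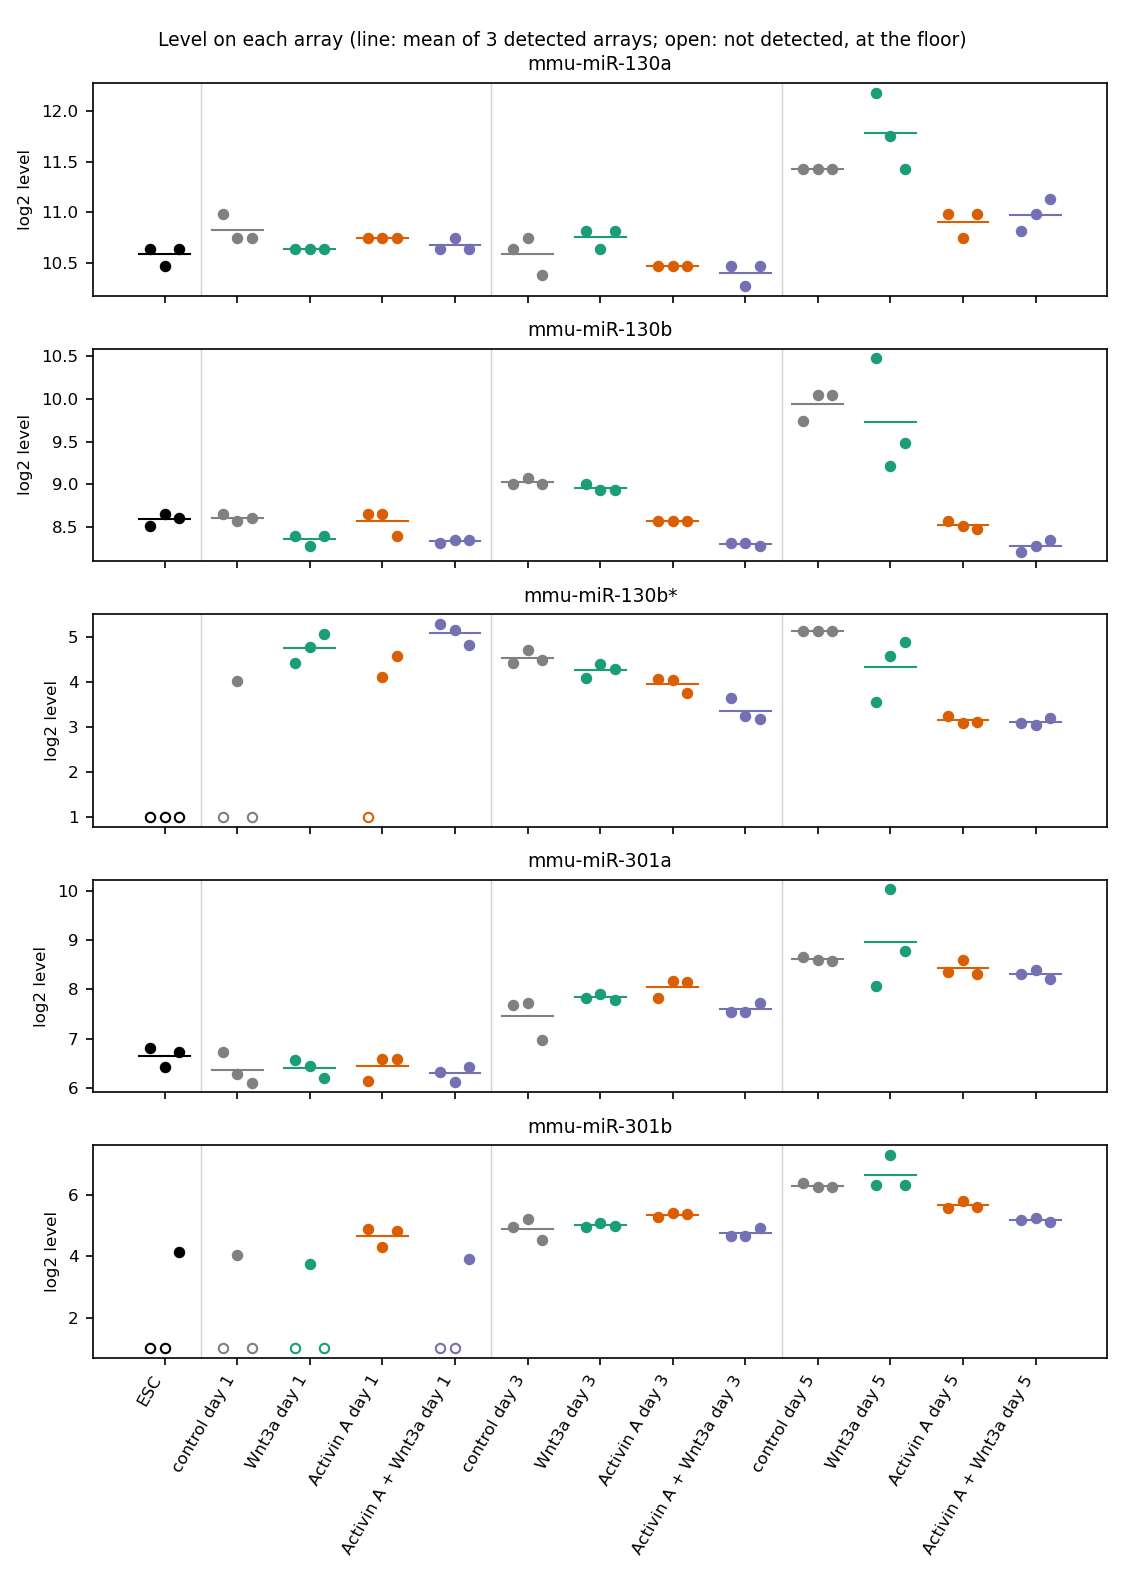
Level of each member (log2 normalized total signal) in the 13 groups by day, with 1 point per array (3 per group). A bar gives the group mean where the member was detected on all 3 arrays. Open points are arrays on which it was undetected, placed at the floor. The day 5 control and Wnt3a arrays lie above the Activin A and Activin A plus Wnt3a arrays for miR-130b, while for miR-301a the day 5 Wnt3a arrays span 8.07 to 10.04 and include the range of the other day 5 groups.

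The change in control cells over time shows what the members did in the same medium without factors. From ESCs to day 1, 0 of 5 members passed the limma test at an adjusted p under 0.05 (30.3% of all tested miRNAs passed), with 0 at an unadjusted p under 0.05 and 0 by the methods' plain pairwise test with or without adjustment. Without Wnt3a replicate 1 of day 5, miR-130a was at 0.23 (adjusted p 0.0495). Scaling by the 75th percentile of miRNAs detected on all arrays took the split of all calls from 65 higher and 48 lower to 101 and 38 and miR-130a to 0.42 (adjusted p 0.00166), and with that of all miRNAs the split was 91 and 37. From day 1 to day 3, 4 of 5 members were called, with positive values, beside 63.5% of all tested miRNAs called in either direction and 41.8% called higher. For miR-301a the day 1 arrays had levels of 6.72, 6.28 and 6.10, and the day 3 arrays 7.67, 7.73 and 6.97. The groups did not overlap, and the difference was 1.09 (adjusted p 0.00103). For miR-130b* the difference was 2.54 (adjusted p 0.000694) and for miR-301b 2.89 (adjusted p 0.00199), both from groups with 1 of 3 arrays detected. On the undetected arrays, replicates 1 and 3 of day 1, the lowest detected levels were 5.073 and 4.602, above some or all of the day 3 levels of these members, so the value given to undetected arrays decides direction, call and size. In a fit of only these groups the adjusted p for miR-130b* was 0.0581. The difference for miR-130b, 0.41 (adjusted p 0.0261, 3 of 3 day 3 arrays above every day 1 array), became -0.12 when arrays were scaled by the 75th percentile of all miRNAs. That scaling moved the median of all tested miRNAs in this comparison from 0.50 to 0.25. Day 1 and day 3 control arrays share no slide, and with slides as a block 0 of the 4 passed (miR-301a 1.07, adjusted p 0.145). The miR-130b call was lost without replicate 2 or 3 of day 1 or replicate 2 of day 3, where it ranged from 0.39 to 0.41. That of miR-130a, -0.23 (adjusted p 0.0952), passed without Wnt3a replicate 1 or 3 of day 5 or control replicate 2 of day 3, at -0.31 to -0.22.

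From day 3 to day 5 in control cells, miR-130a was higher by 0.84 (adjusted p 1.31e-06), miR-130b by 0.92 (adjusted p 2.57e-05) and miR-301a by 1.15 (adjusted p 0.000967), each with 3 of 3 day 5 arrays above every day 3 array. The day 3 and day 5 control arrays share neither slide nor scan session, so these cannot be told apart from the day. These are 3 of 5 members, beside 41.6% of all tested miRNAs called and 20.6% called higher. The median difference of the members was 0.92 and that of all tested miRNAs 0.00. Scaling by the 75th percentile of all miRNAs left miR-130a at 0.18 (adjusted p 0.417), and that of miRNAs detected on all arrays took the median of all miRNAs to 0.27 and the split of calls from 77 higher and 78 lower to 99 and 60. The differences of 0.59 for miR-130b* and 1.40 for miR-301b had adjusted p of 0.541 and 0.176.

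At day 3 the treatments were compared with control to find miRNAs that respond to the factors. Marker miRNAs also differed between these groups, as given above, and their part was not tested. The levels of miR-130b were 9.002, 9.072 and 9.002 in control cells, 8.57 on each of the 3 Activin A arrays, and 8.32, 8.32 and 8.29 with both factors. The 3 groups did not overlap. The difference from control was -0.45 with Activin A (95% confidence interval -0.54 to -0.37, adjusted p 6.12e-06) and -0.71 with both factors (-0.80 to -0.63, adjusted p 1.6e-07). For miR-130b* the levels were 4.43, 4.72 and 4.49 in control cells, 4.07, 4.05 and 3.77 with Activin A, and 3.66, 3.25 and 3.18 with both factors. These groups did not overlap either, and the difference from control was -0.59 with Activin A (-0.92 to -0.25, adjusted p 0.00745) and -1.19 with both factors (-1.52 to -0.85, adjusted p 8.3e-05). Both arms of the miR-130b hairpin were thus lower in all 3 arrays of each group. Both kept this direction under each scaling tried, but the size for miR-130b* did not: with normexp, a model of spot signal and local background with an offset of 50, it was -0.08 with Activin A and -0.17 with both factors. With all 39 arrays in 1 fit, the adjusted p for miR-130b* was 0.635 and 0.16.

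The miR-301 members did not follow at day 3. The levels of miR-301a were 7.67, 7.73 and 6.97 in control cells and 7.82, 8.18 and 8.15 with Activin A, and those of miR-301b were 4.97, 5.21 and 4.53 in control cells and 5.29, 5.40 and 5.37 with Activin A. Every Activin A array lay above every control array for both. The differences, 0.59 for miR-301a (0.17 to 1.01, adjusted p 0.0232) and 0.45 for miR-301b (0.11 to 0.79, adjusted p 0.0289), were 0.37 and 0.13 when arrays were scaled by the 75th percentile of miRNAs detected on all arrays and did not pass there. Neither passed with all 39 arrays in 1 fit (adjusted p 0.127 for miR-301a and 0.885 for miR-301b), and with normexp miR-301b was at 0.07. In the F-test over the 4 groups of day 3, miR-301a did not pass (adjusted p 0.0648) and miR-301b did (adjusted p 0.0237), as did the other members. Without control replicate 3, the lowest control array for both, the difference for miR-301a was 0.34 and still passed, and that for miR-301b was 0.26 (adjusted p 0.0504). The miR-301b difference was 0.43 (adjusted p 0.0739) without Activin A replicate 2 and 0.44 (adjusted p 0.0716) without Activin A replicate 3, and leaving out these arrays gave 0.52 (adjusted p 0.0732) and 0.54 (adjusted p 0.0728) for miR-301a. With both factors, miR-301a (0.15, adjusted p 0.506) and miR-301b (-0.16, adjusted p 0.374) did not pass, although without control replicate 3 miR-301b was at -0.35 (adjusted p 0.0138). Neither did miR-130a, at -0.12 (adjusted p 0.341) with Activin A and -0.18 (adjusted p 0.127) with both factors. Without control replicate 3 these were -0.22 (adjusted p 0.0399) and -0.28 (adjusted p 0.0112). Over 12 alternatives the miR-130a value with Activin A ranged from -0.13 to 0.23, with 2 of opposite sign and 0 passing, so its direction depends on the processing. With both factors it ranged from -0.21 to -0.03, and 1 passed.

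By count, 4 of 5 members passed with Activin A at day 3 (2 higher, 2 lower) beside 56.4% of the 326 miRNAs tested, and 2 of 5 with both factors (both lower) beside 59.5% called and 32.5% called lower. These counts are near the background. The study's own list of changed miRNAs holds miR-130b, miR-130b* and miR-301b, so the calls on these are not independent evidence. With Wnt3a alone 0 of 5 members passed the limma test beside 35%, with 0 at an unadjusted p under 0.05, and by the plain test 0 after adjustment and 1 before it. The 75th percentile of miRNAs detected on all arrays moved the median of all miRNAs for Activin A to -0.21 and the split of calls from 83 higher and 101 lower to 67 and 138. For Wnt3a, the 75th percentile of all miRNAs moved the median to -0.12, the split from 51 higher and 63 lower to 44 and 114, and miR-130b and miR-130b* to -0.16 and -0.32 (adjusted p 0.0203 for each). With Wnt3a, miR-130a was at 0.17 (limma, adjusted p 0.203). Its 12 alternatives ranged from -0.07 to 0.22, with 1 passing and 1 of opposite sign. Within the slide that held Activin A, Wnt3a and 2 control arrays of day 3, the Activin A differences were -0.47 for miR-130b, -0.65 for miR-130b*, 0.69 for miR-301a and 0.48 for miR-301b.

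At day 5 the differences for miR-130b were larger. Its levels were 9.74, 10.04 and 10.04 in control cells, 8.57, 8.52 and 8.48 with Activin A, and 8.22, 8.29 and 8.36 with both factors. Control arrays stood more than 1 log2 unit above the rest. The difference was -1.42 with Activin A (-2.03 to -0.81, adjusted p 0.00243) and -1.65 with both factors (-2.26 to -1.04, adjusted p 0.000829). For the star arm the levels were 5.14 on each control array, 3.25, 3.103 and 3.127 with Activin A, and 3.103, 3.042 and 3.201 with both factors. The treated groups overlap each other and lie below control, by -1.98 with Activin A (-2.60 to -1.35, adjusted p 0.000354) and -2.02 with both factors (-2.65 to -1.40, adjusted p 0.000255). The directions for both arms were the same under each scaling tried, with miR-130b at -1.05 with Activin A and -1.33 with both factors under the 75th percentile of all miRNAs. For miR-130b* the alternatives ranged from -2.60 to -0.26 with Activin A and from -2.63 to -0.27 with both factors, the smallest with normexp, and each passed.

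For miR-301b at day 5 the levels were 6.39, 6.26 and 6.26 in control cells, 5.578, 5.812 and 5.595 with Activin A, and 5.19, 5.24 and 5.12 with both factors. The 3 groups did not overlap. The difference passed with both factors (-1.12, -1.65 to -0.59, adjusted p 0.0035) and not with Activin A (-0.64, adjusted p 0.0587), where the adjusted p was 0.032, 0.000159 and 0.0472 without Wnt3a replicate 1, 2 or 3, with the value between -0.65 and -0.64. Over 12 alternatives the miR-301b value with Activin A ranged from -0.70 to -0.18, and 3 passed. With both factors the alternatives for miR-301b reached -0.27, with normexp, and all 39 arrays in 1 fit gave an adjusted p of 0.283. The levels of miR-130a were 11.43 on each control array, 10.98, 10.74 and 10.98 with Activin A, and 10.81, 10.98 and 11.13 with both factors. Treated arrays lay below control, and the difference of -0.53 with Activin A (-0.92 to -0.14, adjusted p 0.0383) was 0.09 under the 75th percentile of all miRNAs, so its direction depends on the scaling. It passed in 5 of 12 fits that each left out 1 day 5 array, and did not without any 1 of the control or Activin A arrays or both-factor replicate 2, at -0.58 to -0.46. With both factors miR-130a was at -0.45 (adjusted p 0.0566), and passed at -0.46 without Wnt3a replicate 1 (adjusted p 0.00638) or 3 (adjusted p 0.0193). Over 12 alternatives this value ranged from -1.04 to -0.215, and 5 passed. The seed-sharing miR-301a was at -0.18 (adjusted p 0.818) and -0.30 (adjusted p 0.602).

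With Activin A 3 of 5 members passed at day 5, all lower, beside 37.5% of the 368 miRNAs tested (19.3% lower), and with both factors 3 of 5, all lower, beside 46.2% (24.7% lower). The median difference of the members was -0.64 with Activin A and -1.12 with both factors, against -0.03 and 0.00 for all tested miRNAs. With the 75th percentile of miRNAs detected on all arrays, the median of all miRNAs was -0.19 and -0.20, and the split of calls went from 67 higher and 71 lower to 58 and 95 with Activin A and from 79 and 91 to 57 and 124 with both factors. On the slide that held control and Activin A arrays, the difference was -1.40 for miR-130b and -1.96 for miR-130b*. No slide held control arrays beside those with both factors at day 5; with slide as a fixed block, which here rests on the Activin A arrays that were on both slides, miR-130b was at -1.59 (adjusted p 0.0607) and miR-301b at -1.02 (adjusted p 0.152).

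With Wnt3a alone at day 5, 0 of 5 members passed the limma test beside 8.15%, with 1 at an unadjusted p under 0.05, and by the plain test 0 after adjustment and 1 before it. The split of all calls was 20 higher and 10 lower, and 29 and 3 or 22 and 3 under the 75th percentile scalings. The Wnt3a arrays differed among themselves: miR-130b was at 10.47, 9.22 and 9.49 and miR-130a at 12.18, 11.75 and 11.43. Replicate 1 stood above the control arrays for miR-130b and the other 2 below. With every day 5 array kept, the limma difference from control was -0.22 for miR-130b (adjusted p 0.697) and -0.80 for miR-130b* (adjusted p 0.14). That of miR-130a was 0.36 (adjusted p 0.265). Without replicate 1, miR-130b was at -0.59 (adjusted p 0.00563) and miR-130b* at -0.41 (adjusted p 0.0112) against control. Without replicate 3, miR-130a was at 0.54 (adjusted p 0.0418) and miR-130b* at -1.09 (adjusted p 0.0243).

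**Figure D2:**
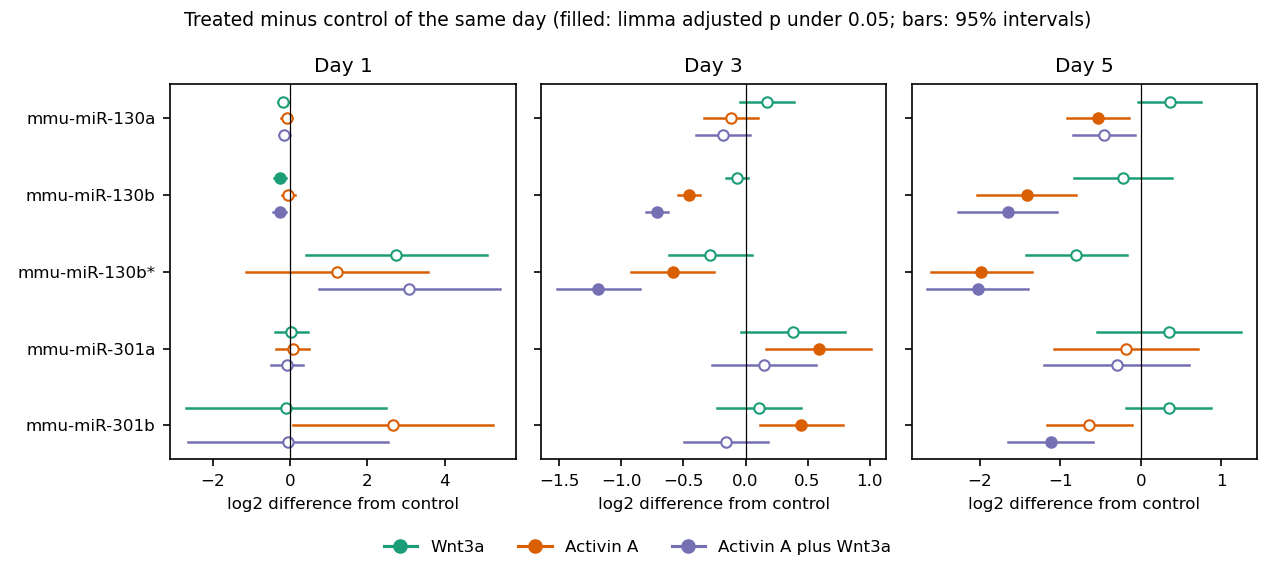
Difference from control (log2) of each member with Activin A, Wnt3a or both at days 1, 3 and 5, with 95% confidence intervals from limma (3 arrays per group). The miR-130b and miR-130b* differences with Activin A, alone or with Wnt3a, lie below 0 at days 3 and 5 under each scaling tried, whereas that of miR-130a with Activin A at day 5 changes sign under the 75th percentile of all miRNAs.

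**Figure D3:**
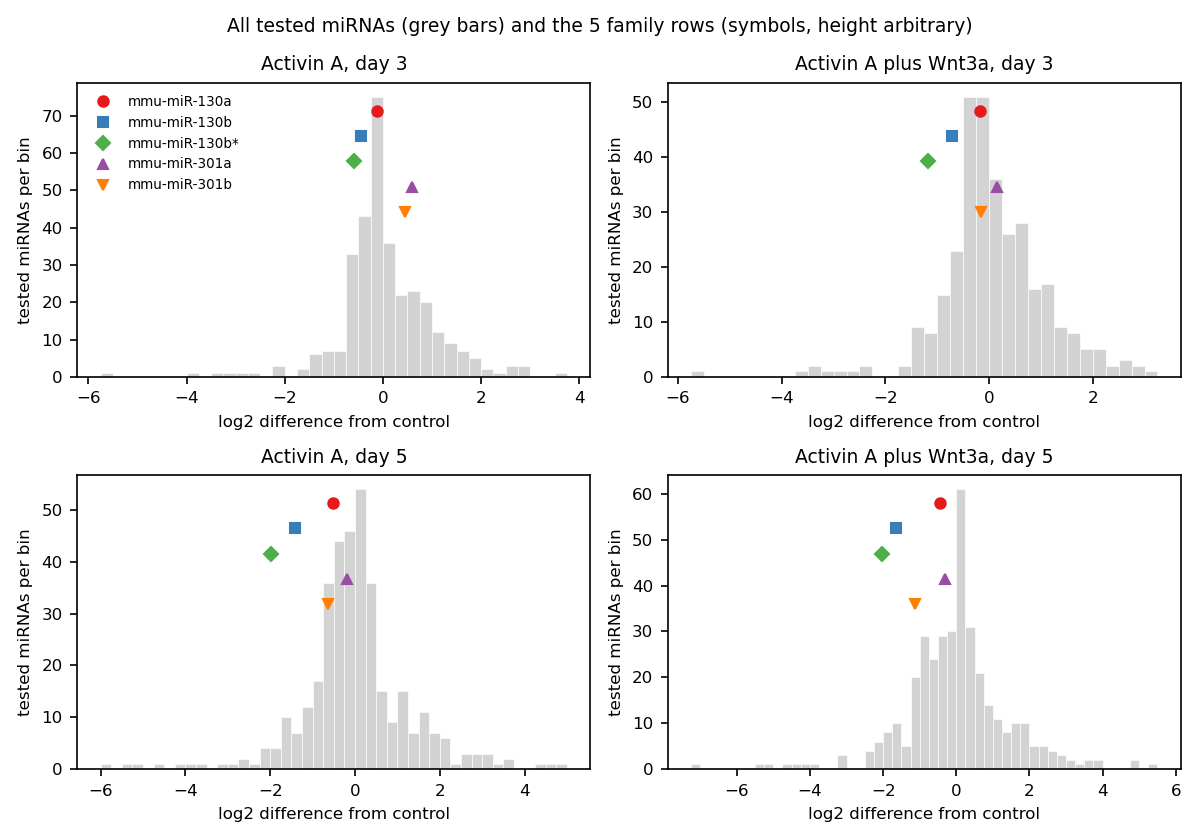
Distribution of the log2 difference from control for all tested miRNAs (326 at day 3, 368 at day 5), with the members marked. At day 5 miR-130b and miR-130b* lie well below the centre of the distribution, and under the 75th percentile of miRNAs detected on all arrays that centre is at -0.19 with Activin A and -0.20 with both factors.

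Whether Wnt3a adds to Activin A was compared directly at each day. At day 3, miR-130b was lower with both factors than with Activin A by -0.26 (-0.35 to -0.17, adjusted p 0.00119), miR-130b* by -0.60 (adjusted p 0.0141) and miR-301b by -0.61 (adjusted p 0.0138), with 3 of 3 arrays below every Activin A array for each. These are 3 of 5 members beside 29.4% of all tested miRNAs called and 14.4% called lower. With all 39 arrays in 1 fit none of the 3 passed, with adjusted p of 0.578 for miR-130b, 0.906 for miR-130b* and 1 for miR-301b. The groups were on different slides and the signs are those of the scanner labels. Under the table's column names the signs are reversed. Over 12 alternatives with the scanner labels, miR-130b ranged from -0.32 to -0.12 and miR-301b from -0.85 to -0.07. No scaling reversed the signs, though miR-130b* was at -0.09 (adjusted p 0.555) with the 75th percentile of miRNAs detected on all arrays. The split of all calls was 49 higher and 47 lower, 87 and 26 with that scaling (median of all miRNAs 0.11) and 58 and 88 with the 75th percentile of all miRNAs. Leaving out both-factor replicate 2 gave -0.54 for miR-130b* (adjusted p 0.0538) and -0.57 for miR-301b (adjusted p 0.0514), and leaving out replicate 3 gave -0.51 (adjusted p 0.0537) for miR-130b*. Without Activin A replicate 1, miR-130b* was at -0.54 (adjusted p 0.0569), and without control replicate 3 miR-301a was at -0.44 (adjusted p 0.0109). At day 1, 0 of 5 passed the limma test beside 10.4%, with 2 at an unadjusted p under 0.05. By the plain test it was 0 after adjustment and 1 before it. Without Activin A replicate 3, miR-130b was at -0.31 (limma, adjusted p 0.00155). That replicate was the only Activin A array of day 1 on the slide of the both-factor arrays. Within this slide the miR-130b difference was -0.05. Without the replicate, slide and treatment cannot be told apart. At day 1 the split of all calls, 14 higher and 11 lower, was 6 and 30 with the 75th percentile of miRNAs detected on all arrays (median -0.14). That scaling gave -0.43 for miR-130a (adjusted p 0.0187) and -0.36 for miR-130b (adjusted p 0.0404). At day 5, 0 of 5 passed beside 4.89%, with 0 at an unadjusted p under 0.05 and 0 by the plain test with or without adjustment; the interval for miR-130b was -0.85 to 0.37, and without Wnt3a replicate 2 miR-301b was at -0.49 (adjusted p 0.00856). The split of all calls was 13 higher and 5 lower, and 10 and 10 with that scaling (median -0.11).

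The converse comparison, Activin A added to Wnt3a, asks what the first factor did where the second was present throughout. At day 3 the difference was -0.35 for miR-130a (adjusted p 0.0128), -0.65 for miR-130b (adjusted p 4.94e-07) and -0.90 for miR-130b* (adjusted p 0.000743), 3 of 5 members beside 50.6% called and 27.6% called lower; without control replicate 3, miR-301b also passed, at -0.27 (adjusted p 0.031). The miR-130a value was -0.11 (adjusted p 0.442) and -0.03 (adjusted p 0.86) under the 75th percentile scalings. At day 5 it was 4 of 5, all lower, beside 41% called and 20.9% called lower, with -0.81 for miR-130a (adjusted p 0.00446), -1.44 for miR-130b (adjusted p 0.00223), -1.22 for miR-130b* (adjusted p 0.00652) and -1.47 for miR-301b (adjusted p 0.00086). In each of these all 3 arrays with both factors were below every Wnt3a array. With all 39 arrays in 1 fit miR-130b* did not pass at day 3 (adjusted p 0.373) or day 5 (adjusted p 0.11), nor miR-301b at day 5 (adjusted p 0.133). All day 5 arrays of this comparison were on 1 slide. The day 5 value of miR-301a, -0.65 (adjusted p 0.229), was -1.10 (adjusted p 0.0149) without Wnt3a replicate 1. The split of all calls at day 5 was 74 higher and 77 lower, and 46 and 141 with the 75th percentile of miRNAs detected on all arrays, where the median of all miRNAs was -0.38. At day 1, 0 of 5 passed the limma test beside 4.58%, with 0 at an unadjusted p under 0.05 and 0 by the plain test with or without adjustment.

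The interaction asks if the effect of both factors differs from the sum of each. At day 3 it was -0.19 for miR-130b (adjusted p 0.0323) and -0.72 for miR-301b (adjusted p 0.0401), 2 of 5 members, both lower, beside 22.7% called and 11.3% called lower, and neither passed with either 75th percentile scaling, of which that over miRNAs detected on all arrays moved the split of all calls from 37 higher and 37 lower to 56 and 34. With all 39 arrays in 1 fit the adjusted p was 0.976 and 1. Each passed in 3 of 12 fits that left out 1 array, and the calls were lost without any 1 of the Activin A or Wnt3a arrays or without control replicate 1. They were also lost without both-factor replicate 2, and without replicate 3 for miR-130b (all from -0.21 to -0.17) or replicate 1 for miR-301b (all from -0.75 to -0.67). Both values turned positive with the deposited columns as named, and neither passed with the replicate block. The value for miR-301a, -0.82 (adjusted p 0.0514), passed without any 1 of the control arrays or Activin A replicate 1, at -0.96 to -0.58. At day 1 no member passed the limma test (0 of 5 beside 0%), with 0 at an unadjusted p under 0.05 and 0 by the plain test with or without adjustment. At day 5 it was 0 of 5 beside 3.26%, with 1 at an unadjusted p under 0.05, and by the plain test 0 after adjustment and 1 before it; without Wnt3a replicate 2, miR-301b was at -0.51 (adjusted p 0.0441). The split was 6 higher and 6 lower, and 3 and 19 with the same scaling (median -0.19).

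At day 1 the only member calls against control were for miR-130b. The levels of miR-130b were 8.66, 8.57 and 8.61 in control cells, 8.40, 8.29 and 8.40 with Wnt3a and 8.32, 8.36 and 8.36 with both factors. Treated arrays were all below control arrays. The difference was -0.25 with Wnt3a (adjusted p 0.037), 1 of 5 members beside 20% of the 240 miRNAs tested, and -0.27 with both factors (adjusted p 0.0246), 1 of 5 beside 25%. These groups and the control arrays were on different slides, and with slides as a block the values were 0.01 and 0.00. Under the 75th percentile of miRNAs detected on all arrays, the median of all miRNAs was -0.12 and -0.18, and the split of calls went from 24 higher and 24 lower to 16 and 77 with Wnt3a and from 30 and 30 to 17 and 84 with both factors. With normexp the splits were 66 and 39, and 62 and 39. The Wnt3a value passed in 4 and the both-factor value in 7 of 12 fits that left out 1 array; both were lost without any 1 of the both-factor arrays or without control replicate 1 or 3, and the first also without any 1 of the Wnt3a arrays, at -0.27 to -0.21. The star arm was at 2.76 with Wnt3a (adjusted p 0.0875) and 3.09 with both factors (adjusted p 0.0585), with detection on 1 of 3 control arrays, so the value given to undetected arrays decides direction, size and call; without control replicate 2, the array on which it was detected, no control array has a measured level and no difference is given. It passed without Activin A replicate 1 (adjusted p 0.0358 and 0.0201) and, with both factors, without Activin A replicate 3 (adjusted p 0.0471). With all 39 arrays in 1 fit it also passed (adjusted p 0.00333 and 0.00068), while miR-130b did not (adjusted p 0.41 and 0.411). For miR-301b with Activin A the levels were 4.89, 4.30 and 4.84, against 1 detected control array of 3 at 4.05. The difference was 2.66 (0.07 to 5.24, adjusted p 0.286), but all 3 Activin A levels lie below 5.073, the lowest detected level on control replicate 1, so no direction against that array was measured. With Activin A, 0 of 5 passed the limma test beside 3.33%, with 1 at an unadjusted p under 0.05 and 0 by the plain test with or without adjustment.

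**Figure D4:**
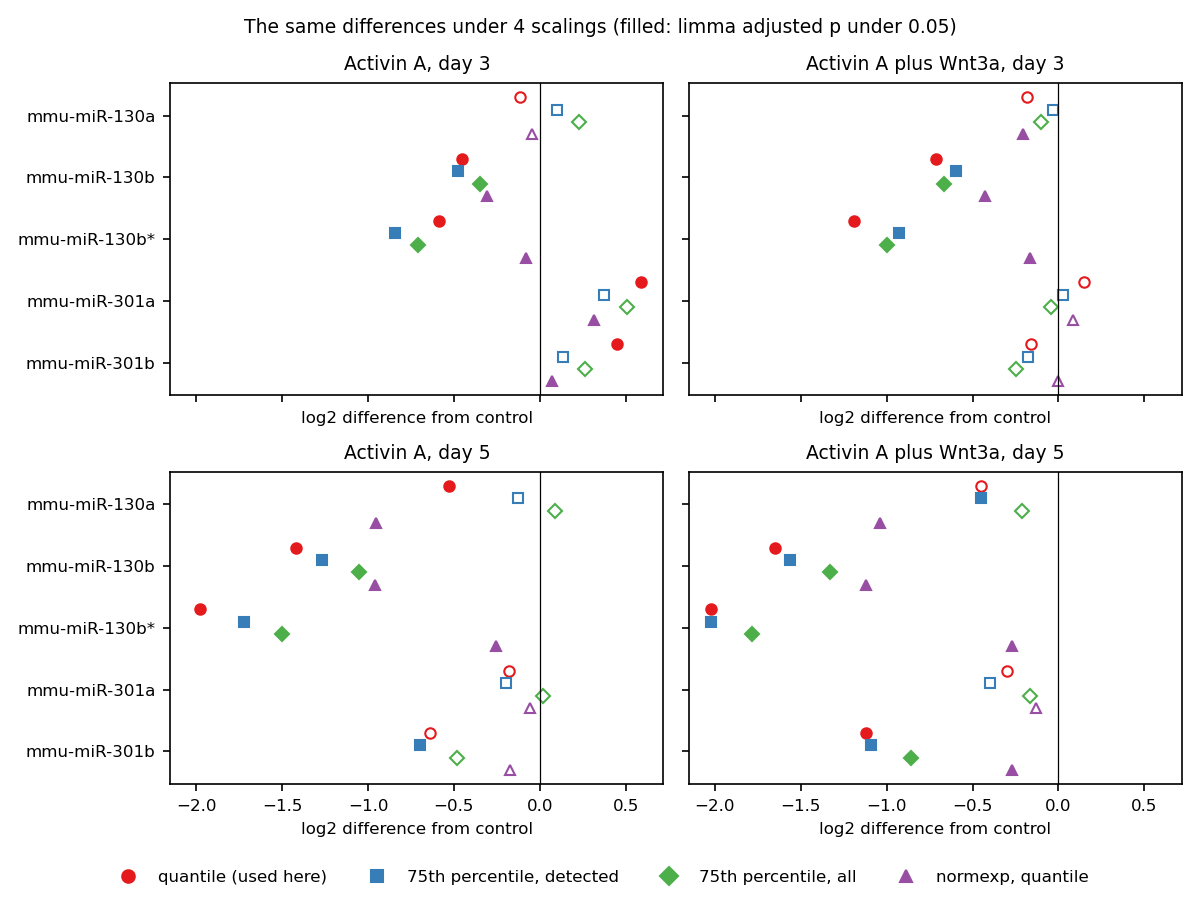
Difference from control (log2) of each member under the main scaling and the 3 alternative scalings, for the treatments with Activin A at days 3 and 5. The values for miR-130b and miR-130b* stay below 0 under each, while that of miR-130a with Activin A at day 5 changes sign under the 75th percentile of all miRNAs.

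The treatments can also be followed along time. In cells with Activin A, the level of miR-130b did not pass any test between days: its difference was 0.00 from day 1 to day 3 and -0.05 from day 3 to day 5. The same held with both factors, at -0.03 and -0.02. Scaled by the 75th percentile of all miRNAs, the first Activin A step was -0.49 (adjusted p 0.0215), with a median of all miRNAs of 0.00 in place of 0.24 and a split of calls of 113 higher and 98 lower in place of 139 and 78. With Wnt3a it was 0.60 from day 1 to day 3 (adjusted p 0.0019) and 0.77 from day 3 to day 5 (adjusted p 0.000245), beside 0.41 and 0.92 in control cells; the first Wnt3a step was 0.17 (adjusted p 0.458) with that scaling, and the second was 0.39 without Wnt3a replicate 1 of day 5 and had an adjusted p of 0.194 in a fit of only these groups. From day 3 to day 5 miR-130b thus rose in control cells and with Wnt3a, and no change passed in the groups with Activin A. For miR-301a the day 1 to day 3 difference passed in every treatment, at 1.44 with Wnt3a (adjusted p 4.37e-05), 1.32 with both factors (adjusted p 0.000154) and 1.61 with Activin A (adjusted p 1.03e-05). In none of the treatments did day 1 and day 3 arrays share a slide. With both factors the scan session changed between these days as well.

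From day 1 to day 3, 3 of 5 members passed with Wnt3a, all higher, beside 59.5% called and 37.8% called higher, 1 of 5 with Activin A beside 58.2%, and 3 of 5 with both factors beside 57.4%. From day 3 to day 5 it was 3 of 5 with Wnt3a, all higher, beside 44% called and 20.4% called higher, 1 of 5 with Activin A beside 15.5%, and 1 of 5 with both factors beside 13.9%. In this last step miR-130a was the member that passed in all treatments, at 1.03 with Wnt3a (adjusted p 4.6e-08), 0.57 with both factors (adjusted p 0.000993) and 0.43 with Activin A (adjusted p 0.0123). Under the 75th percentile scalings the values with Activin A (0.25 and 0.04) and with both factors (0.06 and 0.07) did not pass. The Activin A value was 0.39 without Activin A replicate 1 (adjusted p 0.0649) or 3 of day 5 (adjusted p 0.0651). From day 1 to day 3 the miR-130a difference was -0.27 in both groups (adjusted p 0.058 with Activin A, 0.0544 with both factors), and passed without Wnt3a replicate 1 or 3 of day 5 or control replicate 3 of day 3, and with both factors also without Wnt3a replicate 2 or both-factor replicate 1 or 3 of day 5, all at -0.28 to -0.26. With Wnt3a miR-301a was higher at day 5 than at day 3 by 1.12 (adjusted p 0.00129), by 0.58 without Wnt3a replicate 2 of day 5, and with an adjusted p of 0.201 in a fit of only these groups. For miR-301a with both factors, 0.71 from day 3 to day 5 (adjusted p 0.0943) passed without Wnt3a replicate 1 (adjusted p 0.0184) or 2 of day 5 (adjusted p 0.00703). The split of all calls from day 3 to day 5 with Wnt3a was 76 higher and 88 lower, and 125 and 66 under a 75th percentile scaling that moved the median to 0.31. With Activin A it was 26 higher and 32 lower, and 70 and 21 under a 75th percentile scaling that moved the median to 0.24. With both factors the normalized level of the star arm was lower at day 3 than at day 1 by 1.74 (adjusted p 0.0168). Without both-factor replicate 1 of day 1 it was lower by 1.62 (adjusted p 0.0548). Before normalization its total signal was 15.94, 14.31 and 14.72 at day 1 and 16.08, 12.13 and 16.34 at day 3. These raw signals overlap, so the difference depends on the normalization. The 2 groups also share neither slide nor scan session.

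The change of the treatment effect from day 3 to day 5 was tested itself. For miR-130b the effect at day 5 differed from that at day 3 by -0.96 with Activin A (-1.43 to -0.50, adjusted p 0.00208), 1 of 5 members beside 20.9%, and by -0.94 with both factors (adjusted p 0.00222), 1 of 5 beside 28.4%. Both values kept their direction under each scaling and did not pass under the 75th percentile of all miRNAs, at -0.70 (adjusted p 0.0673) and -0.67 (adjusted p 0.0573). The split of all calls with both factors was 58 higher and 48 lower, and 34 and 65 with the 75th percentile of miRNAs detected on all arrays (median -0.30). With Wnt3a it was 0 of 5 by limma beside 4.83%, with 0 at an unadjusted p under 0.05 and 0 by the plain test with or without adjustment; without Wnt3a replicate 1 of day 5, miR-130b was at -0.53 (adjusted p 0.00128). For Activin A, miR-130a passed at -0.42 without Wnt3a replicate 1 (adjusted p 0.0125) or 3 of day 5 (adjusted p 0.0273), and miR-301a at -0.76 without replicate 2 (adjusted p 0.0318).

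From ESCs to cells with both factors at day 5, the course the study set out to follow, 4 of 5 members were called, with positive values, beside 63% of all tested miRNAs called and 43.7% called higher. For miR-130b* this call is made by the value given to undetected arrays: it was undetected on all ESC arrays, whose detection bound of 4.66 lies above its day 5 level of 3.12, so no direction was measured. The difference was 1.66 for miR-301a (adjusted p 7.04e-06, 3 of 3 arrays above every ESC array) and stayed positive under each scaling tried, while the median of all miRNAs went from 0.42 to between 0.04 and 0.55. For miR-130a it was 0.39 (adjusted p 0.00598), and -0.08 under the 75th percentile of all miRNAs and -0.01 with the normexp background step, so its direction depends on the processing. The member miR-301b was at 3.13 (adjusted p 0.000976) with 1 of 3 ESC arrays detected, so its size depends on the undetected arrays. For miR-130b the difference was -0.31 (adjusted p 0.1), which passed without Wnt3a replicate 1 of day 5 (-0.31, adjusted p 0.00047) or replicate 2 (-0.30, adjusted p 0.0447). The ESC arrays and the day 5 arrays with both factors share neither slide nor scan session. For every member, slide and session thus cannot be told apart from the cell state here.

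Outside the named members, miR-721 has the same seed. It was lower with Activin A at day 3 (-0.63, adjusted p 0.000232) and day 5 (-0.76, adjusted p 0.000602) and with both factors at day 3 (-0.77, adjusted p 5.36e-05) and day 5 (-1.10, adjusted p 4.57e-05). In control cells it was lower at day 1 than in ESCs by -1.92 (adjusted p 1.31e-07), where no member of the family passed. These directions were the same under both 75th percentile scalings and normexp, although the Activin A value at day 5 was -0.54 (adjusted p 0.0516) with the 75th percentile of all miRNAs. The study's list of changed miRNAs holds it too. A list of 5 miRNAs with a shifted seed, which shares a run of 6 bases with that of the family, had 2 higher and 0 lower with Activin A at day 3 (median of the 5, 0.45) beside 56.4% of all tested miRNAs called, and 1 higher and 1 lower with both factors (median -0.23) beside 59.5%. At day 5 it had 1 higher with Activin A (median -0.04) beside 37.5%, and 1 higher and 1 lower with both factors (median -0.19) beside 46.2%. Its members did not move alike: at day 3 with both factors miR-148a was at 0.49 (adjusted p 1.93e-05) and miR-19b at -1.07 (adjusted p 0.00461), and at day 5 miR-148a did not pass (0.66, adjusted p 0.24). Under the 75th percentile scalings this day 3 value of miR-19b was -0.51 and -0.58, and it still passed.

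Likeness of pattern was described by Pearson's r over the 13 group means, which share arrays, scaling and the course of time. Among the members, miR-301a and miR-301b were most alike (r = 0.903), then miR-130a and miR-130b (r = 0.782), while both arms of the miR-130b hairpin had r = 0.38 and the neighbouring hairpins' miR-130b and miR-301b r = 0.578. Of the 10 pairs of members, miR-130a and miR-130b* were least alike (r = 0.258). In ESCs and in all day 1 groups but Activin A, miR-301b was detected on 1 of 3 arrays. The star arm was undetected on all ESC arrays and detected on 1 of 3 control arrays at day 1. Their means there are mostly the value given to undetected arrays, so the r of each pair with either depends on that value. The miRNAs most like miR-130b were miR-99a (0.966), miR-153 (0.954) and miR-342-3p (0.949). For miR-130a they were miR-133a (0.925), miR-181a (0.92) and miR-676 (0.898), and for miR-130b* miR-18a* (0.941), miR-149 (0.889) and miR-30d (0.887). For miR-301a they were miR-186 (0.978), miR-1198 (0.964) and miR-710 (0.963), and for miR-301b miR-9 (0.925), miR-652 (0.918) and miR-103 (0.91). Several of these were detected on few arrays, such as miR-133a on 7 of 39 and miR-153 on 10, and their pattern there is mostly the value given to undetected arrays.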

How the data were processed

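Total RNA of 39 samples was measured on 1-colour Agilent miRNA arrays (650 mouse miRNAs, 20 spots per member). Per the file headers, the raw intensity values were made with Agilent Feature Extraction 10.7.3.1 (9.5.3.1 in the submitters' notes), as a background-subtracted total signal per miRNA, and the files carry other values, flags of 0 or 1 for detection and saturation. The authors deposited a table of log2 values after quantile normalization; its column medians range from 0.02599 to 0.7788, so it is centred in a way not described, and its scale and centring stay unknown while its direction follows the raw signal. It was used only as an alternative and to match columns to arrays by rank over 143 miRNAs. Signals were quantile normalized over 39 arrays, raised to a floor of 2 and taken to log2. The median local background was 35 to 42. For each day (12 arrays), and over all 39 arrays for comparisons over time, a miRNA was tested, if some group had it detected on 2 or more of its 3 arrays, with limma 3.58.1 (R 4.3.3, statmod 1.5.0; moderated contrasts and F-tests), with Benjamini-Hochberg adjustment over all tested miRNAs. Called means an adjusted p under 0.05. Tests are two-sided. The fit was tested on simulated data. Named miRNAs are all 5 members, other array miRNAs with the same seed, a shifted-seed list and 4 marker lists, and the 3 miRNAs most like each member over 13 group means. Members and lists were chosen with earlier results of these data known. The number of arrays limits the precision. Alternatives were other scalings, background steps, filters, floors, tests and thresholds, the deposited table, slide and replicate blocks, and leaving out each array.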

Additional observations from a re-analysis of the deposited data

Results flagged for a closer look

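The interaction of Activin A and Wnt3a at day 3 was -0.194 for mmu-miR-130b and -0.716 for mmu-miR-301b (log2), listed because the test of whether the effect of 1 factor differs with the other present passed. The effect of treatment on mmu-miR-130b at day 5 differed from that at day 3 by -0.963 with Activin A and by -0.94 with Activin A plus Wnt3a, listed because the difference between the days was itself tested and passed. The causes were not tested.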

How the results depend on the processing

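Counts of member calls were recomputed under each alternative; where none is named for a count, it stayed within 1.5 times its main value. At day 1 against control the main count of 2 became 6 with the 75th percentile over miRNAs detected on all arrays, 0 with that over all miRNAs, 6 with normexp, 0 with no detection filter, 4 with a floor of 10, 0 with slide as a block, 1 with the replicate block and 0 with a 2-fold threshold added. At day 3 the count of 6 became 2 with all 39 arrays in the fit, both for miR-130b, and 1 with the 2-fold threshold. At day 5 the count of 6 became 3 with slide as a block. For Wnt3a added to Activin A, 3 became 6 with normexp, 1 with all arrays, which is miR-301b at day 1 and none of the 3, and 0 with the 2-fold threshold. For Activin A added to Wnt3a, 7 became 4 with all arrays, which lost miR-130b* at days 3 and 5 and miR-301b at day 5, and 3 with the 2-fold threshold. For the interaction, 2 became 0 with either 75th percentile, with all arrays, with the replicate block and with the 2-fold threshold, 1 with no filter, with the plain test and with the deposited table matched to its arrays, and 4 with that table's columns as named. Over time in control cells, 7 became 11 with normexp, 3 with slide as a block and 4 with the 2-fold threshold. For the change of effect from day 3 to day 5, 2 became 0 with the 75th percentile over all miRNAs, 7 with normexp, 5 with a floor of 10, 8 with other arrays in the fit and 0 with the 2-fold threshold. Leaving out 1 array gave 0 to 4 at day 1, 4 to 8 at day 3, 5 to 10 at day 5, 1 to 4 for Wnt3a added, 7 to 8 for Activin A added, 0 to 3 for the interaction, 6 to 9 over time in control cells, 15 to 20 over time in treated cells (main 16) and 2 to 4 for the change of effect. Differences among 13 groups gave 5 throughout. Of 663 comparisons of 51 called values with an alternative, 578 kept direction and call, 73 kept direction only and 12 reversed. The reversed values were 0.00979 for miR-130b with Wnt3a at day 1 (slide as a block), 0.0878 for miR-130a with Activin A at day 5, -0.123 for miR-130b in control cells from day 1 to day 3 and -0.0841 for miR-130a with both factors at day 5 against ESCs (75th percentile over all miRNAs), and -0.0128 for the last with normexp. With the deposited columns as named, which exchange the Activin A groups, they were -0.197 for miR-301b with Activin A at day 3, 0.305, 0.62 and 0.85 for miR-130b, miR-130b* and miR-301b with Wnt3a added at day 3, 0.36 and 0.7 for the interaction of miR-130b and miR-301b at day 3, and 0.442 for miR-130b* with both factors from day 1 to day 3. The matched table was an alternative chosen after seeing the data. Arrays of different groups with equal replicate numbers did not deviate together in the median. The 234 same-number pairs had a median r of 0.000555 (-0.491 to 0.388), beside 0.00613 for 468 other pairs. The labels do not say if samples are paired, and a median over all groups and days cannot decide it. Except for the exchanged columns and the added threshold, the cause was not tested. Signal over background limits miR-130b* and miR-301b, which were undetected on 6 and 8 arrays, so their differences from day 1 or ESCs depend on the floor.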
